A study of Mus musculus with 77 samples.

Results

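The genes described here are those that mouse pancreatic ductal organoid cells kept at clearly lower levels after 2 days of Neurogenin3 (Ngn3) expression. They were chosen from their CPM, the counts in a library scaled to a common total over genes, averaged over the 3 replicates of a group. A gene was a member if its mean was at least 20 CPM in cells expressing GFP only and if the means of cells expressing WT Ngn3 and of cells expressing 6S-A Ngn3 were each at most 0.33 times that level. Of the 46078 genes in the table, 8031 reached 20 CPM with GFP only and 80 were members, so the planned maximum of 200 was not needed. The 2-day values chose the members and are given as a description without a test. The 8-day samples were not used in the choice and carry the tests.

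The organoids were 3-dimensional cultures of pancreatic ductal cells from C57BL/6 mice, carrying inducible lentiviral vectors for GFP only, for GFP joined to WT Ngn3 or for GFP joined to 6S-A Ngn3, a form in which 6 phosphorylated serines were replaced by alanine. GFP-positive cells were sorted in pools of 50 after 2 days (GFP only, WT Ngn3, 6S-A Ngn3) and 8 days (WT Ngn3, 6S-A Ngn3), and at 8 days the controls were cells without the reporter color from the WT and from the 6S-A cultures. Each of the 7 groups had 3 replicates by the numbers in the labels, each sequenced as 1 or more pools of 50 cells, of organoid passage 2 except for replicate 3 at 8 days, which was of passage 5. Nothing in the labels says that the replicates came from separate animals or cultures, so the p-values measure the spread between these samples. The GFP-only and no-color controls differ in kind, so the 2 time points were never compared in a test. At 8 days there were no GFP-only cells, so in tests against no-color cells Ngn3 cannot be told apart from the vector, the GFP or the sorting. In pools of sorted cells, a lower level can mean fewer cells that express a gene or less RNA per cell, and these cannot be told apart.

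Duct cells of the pancreas secrete a bicarbonate-rich fluid through channels, exchangers and carbonic anhydrases, and they defend the ductal tree with antimicrobial and iron-binding proteins, chemokines and mucosal enzymes. Ngn3 is the basic helix-loop-helix factor that starts the endocrine program in the ductal epithelium of the embryo, and cells that follow it leave the duct and stop dividing. By roles assigned after the members were known, 12 belong to innate defence, 7 are cytokines or their receptors, 3 make or take up prostaglandins, 8 move ions, water or bicarbonate, 5 serve detoxification and export, 4 are secreted signals, 13 belong to the cytoskeleton, membrane or proteolysis, 5 act in DNA replication and mitosis, and 23 were placed in no group.

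The labels of Ngn3 and control samples were checked with Neurog3, the gene for Ngn3, which read 0.0398 to 0.0751 CPM with GFP only, 95.2 to 219 with WT Ngn3 and 109.6 to 213 with 6S-A Ngn3 at 2 days. At 8 days it read 0 to 0.923 CPM in no-color cells, 7.58 to 47.5 with WT Ngn3 and 10.8 to 14.6 with 6S-A Ngn3. The WT and 6S-A ranges overlapped at both times, so the labels of the 2 proteins and the cultures of the no-color cells were not checked. Replicates held between 17757303 and 26627347 reads on genes at 2 days and between 2397470 and 17919627 at 8 days, and at 8 days WT Ngn3 replicate 2 and replicate 3 of every group rested on 1 library each. The summed level of 10 ductal markers was 17873 to 19605 CPM with GFP only, 11267 to 12489 with WT Ngn3 and 9502 to 10348 with 6S-A Ngn3 at 2 days, while 16 endocrine markers summed to at most 3.10 CPM with GFP only and to at least 275 CPM with either protein. The ductal markers did not move alike. Spp1, the largest part of the sum, read 8173 to 10201 CPM with GFP only, 4570 to 5110 with WT and 3928 to 4524 with 6S-A Ngn3. In the same order, Sox9 read 317 to 429, 393 to 424 and 348 to 428 CPM. Krt7 read 1216 to 1503, 1304 to 1429 and 1262 to 1412 CPM. The 9 markers at 20 CPM or more had median ratios to GFP only of 0.637 and 0.509. At 8 days the ductal sum was 12133 to 36265 CPM in no-color cells and 9673 to 25590 in Ngn3 cells, and the endocrine sum at most 14.3 CPM in no-color cells and 36.0 to 5713 in Ngn3 cells. The lowest endocrine sums, 36.0 CPM with WT and 193 with 6S-A Ngn3, were both in replicate 3, against group medians of 1089 and 2646. In WT replicate 3, Chga, Chgb and Neurod1 read 0.805 CPM each and Insm1 14.7. The part of these ductal and endocrine changes in the levels of the members was not tested. The 7 immune markers summed to 3.22 to 20.8 CPM over all replicates and Ptprc, which marks immune cells, read at most 1.02 CPM. Of the others, Csf1r read 3.42 to 5.03 CPM with GFP only, 0.422 to 1.19 with WT and 0.225 to 0.973 with 6S-A Ngn3 at 2 days. In the same order, Cd68 read 6.29 to 7.85, 4.17 to 7.54 and 5.91 to 7.60 CPM. A pair of samples stood apart in the members: 6S-A replicate 3 at 8 days, in which 61 of the 80 members were at most 0.33 times the no-color mean against 27 to 40 in the other Ngn3 replicates, and no-color WT replicate 3, with a median of 0.492 times the mean of the 6 no-color replicates. Both are single libraries of passage 5. Mitochondrial genes took 12.65% of the gene reads in the first, against 3.33% to 9.18% in the other 6S-A Ngn3 libraries at 8 days, and 17.9% in the second, against 3.08% to 9.40% in the other no-color libraries, and the second had the lowest depth. The part of these differences in the results was not tested.

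At 2 days the median member stood at 0.263 times its GFP-only level with WT Ngn3 (range 0.0299 to 0.329) and at 0.174 times with 6S-A Ngn3 (range 0.0197 to 0.301). Over the 8031 genes at 20 CPM or more the medians were 1.01 and 1.02. All 3 WT replicates were below all 3 GFP-only replicates for 79 members, and the same count held for 6S-A Ngn3. Over all genes these shares were 11.4% and 14%, and since the same values chose the members, nothing is read from the counts.

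The 6S-A mean was below the WT mean for 73 of the 80 members, with a median of 0.663 times the WT level, while 48.4% of the genes at 20 CPM or more had a lower mean with 6S-A than with WT Ngn3. Both means entered the rule, so this too is a description. The median member was at 0.193, 0.265 and 0.286 times GFP only in the 3 WT replicates and at 0.103, 0.204 and 0.160 times in the 3 6S-A replicates. The ranges overlap. At the edge of the rule, the last members were Uhrf1, Eva1c, Gm42793 and Spns2, at 0.325, 0.326, 0.329 and 0.329 times GFP only with WT Ngn3. The first genes outside were Samd5, Stbd1, Muc1 and Flrt3, each at 0.332 to 0.334 times with WT Ngn3 and at 0.197 to 0.228 times with 6S-A Ngn3.

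**Figure D1:**
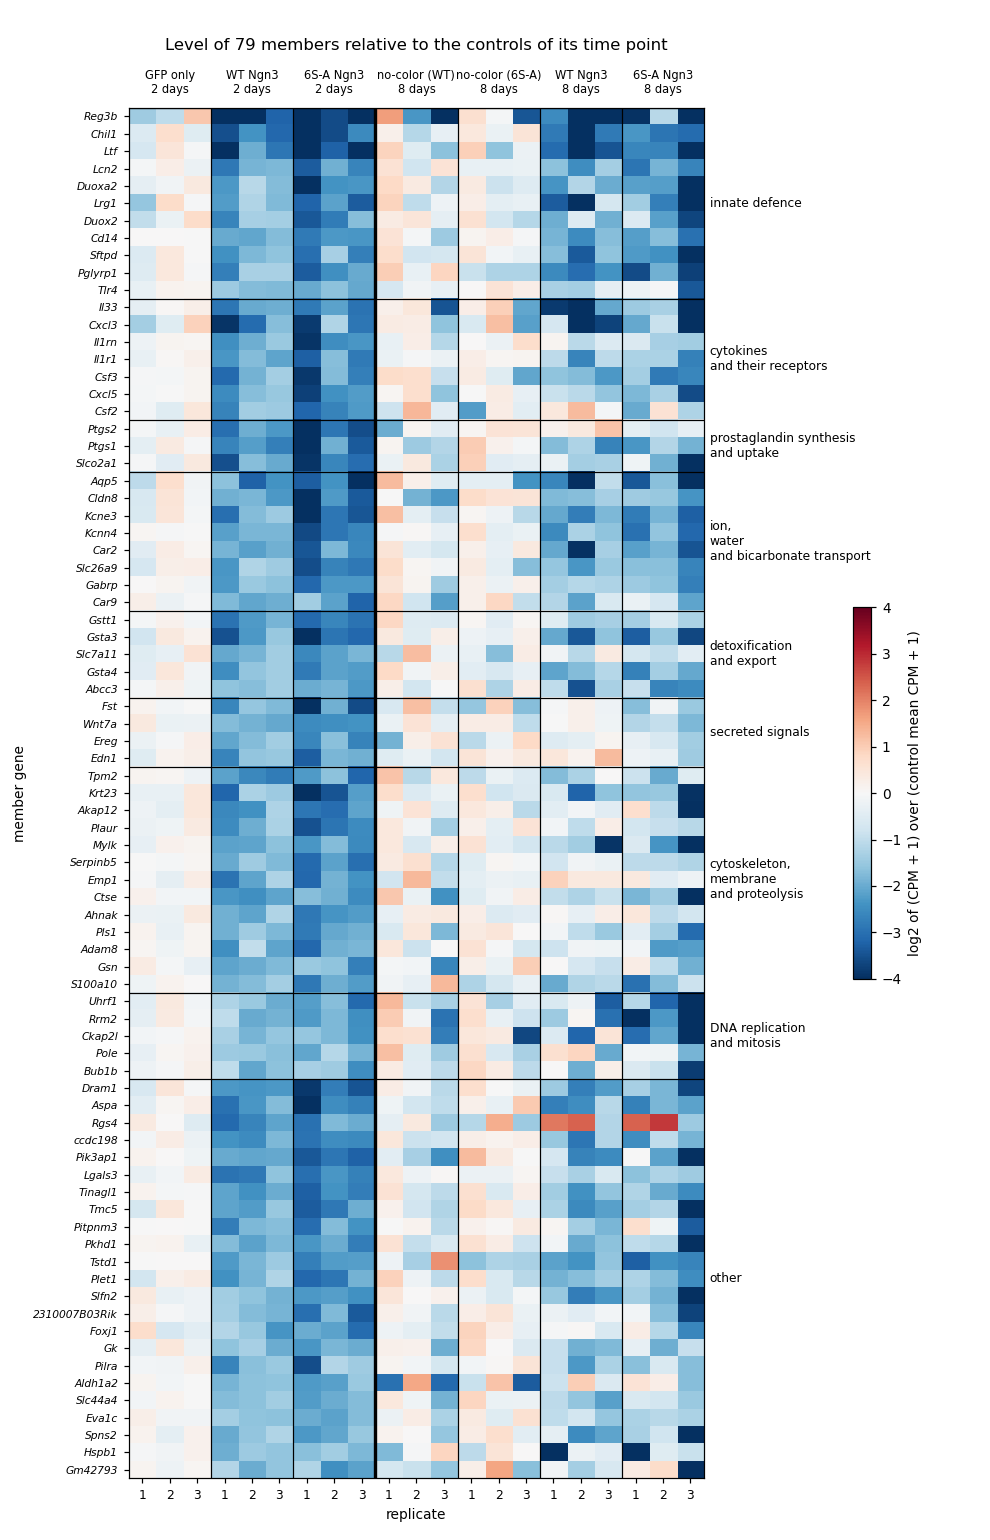
Level of 79 of the 80 members (rows, grouped by role) in each replicate of the 7 groups (columns), as the log2 of CPM + 1 over the mean CPM + 1 of the controls of the same time point: GFP only at 2 days and all 6 no-color replicates at 8 days. Blue is below and red above the controls, and values past an end of the color scale have the color of that end. The 2-day columns of both proteins are blue by the rule, and at 8 days the blue is kept in many defence, transport and detoxification genes and mixed with white and red elsewhere.

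At 8 days all 80 members passed the filter on low counts and were tested among 19696 genes. By edgeR (quasi-likelihood, p adjusted by Benjamini-Hochberg over all genes), 14 members were lower with WT Ngn3 than in no-color cells and none was higher (0.741% of all genes were), a share of 17.5% of the members, where 0.173% of all genes tested were called lower and 0.311% of those at 20 CPM or more with GFP only. With 6S-A Ngn3, 23 members were lower and none was higher (1.37% of all genes were), a share of 28.8%, where 0.34% of all genes tested and 0.697% of those at 20 CPM or more were called lower. The members' median log2 fold change was -1.56 for WT and -1.80 for 6S-A Ngn3, with 74 and 78 of the 80 below 0. Over all genes tested it was 0.01 and 0.03, with 49.5% and 48.1% of genes below 0. All 14 genes called with WT Ngn3 were among the 23 called with 6S-A Ngn3, but the 2 comparisons share their no-color replicates, so the overlap is not read as support.

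All 3 WT replicates were below all 6 no-color replicates for 23 members, where 1.13% of all genes tested were (1.01% at 20 CPM or more). The 6S-A replicates did so for 26, where 1.31% were (1.42%). Of the 66 members that reached 20 CPM in no-color cells, 28 again met the limit of 0.33 times with WT Ngn3, where 1.48% of the 7437 genes at that level did, 37 with 6S-A Ngn3, where 2.16% did, and 26 with both, where 1.2% did. The WT count turned on single replicates: it was 1 without WT replicate 1 or without WT replicate 2 (Chil1 alone), 8 without WT replicate 3, 4 without no-color WT replicate 1, 7 without no-color WT replicate 3, 6 and 7 without no-color 6S-A replicates 1 and 3, and 23 without 6S-A replicate 3. The share of all genes called lower moved too, between 0.0152% without WT replicate 2 and 0.35% without 6S-A replicate 3. The 6S-A count was 13 without 6S-A replicate 3, where 0.152% of all genes were called lower. Gene by gene, Chil1 alone kept its WT call without each of the 12 replicates in turn, and with 6S-A Ngn3 Chil1, Lcn2, Cd14, Pglyrp1, Sftpd, Duoxa2, Kcne3, Kcnn4, Gabrp and Gsta4 kept theirs, 10 of 23. Every other call named below was lost without at least 1 replicate. Of these 10 6S-A calls, those of Chil1, Gsta4, Kcnn4 and Pglyrp1 were lost within passage 2 alone. Those of Duoxa2, Gsta4 and Pglyrp1 were lost against the no-color cells of the 6S-A cultures only. Within passage 2 alone 10 members were lower with WT and 10 with 6S-A Ngn3 (0.117% and 0.132% of all genes were), with medians of -1.64 and -1.61, and passage 5 held 1 replicate per group and gave no test. Against the no-color cells of its own cultures only, WT Ngn3 had 6 lower members (0.0609% of all genes and 0.112% at 20 CPM or more were called lower) and 6S-A Ngn3 12 (0.168% and 0.361%). With a block on the replicate number, 26 members were lower with WT and 38 with 6S-A Ngn3 (0.619% and 1.18% of all genes were). Unless the block is named, a gene said below to pass or not to pass did so in the fit without it.

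**Figure D2:**
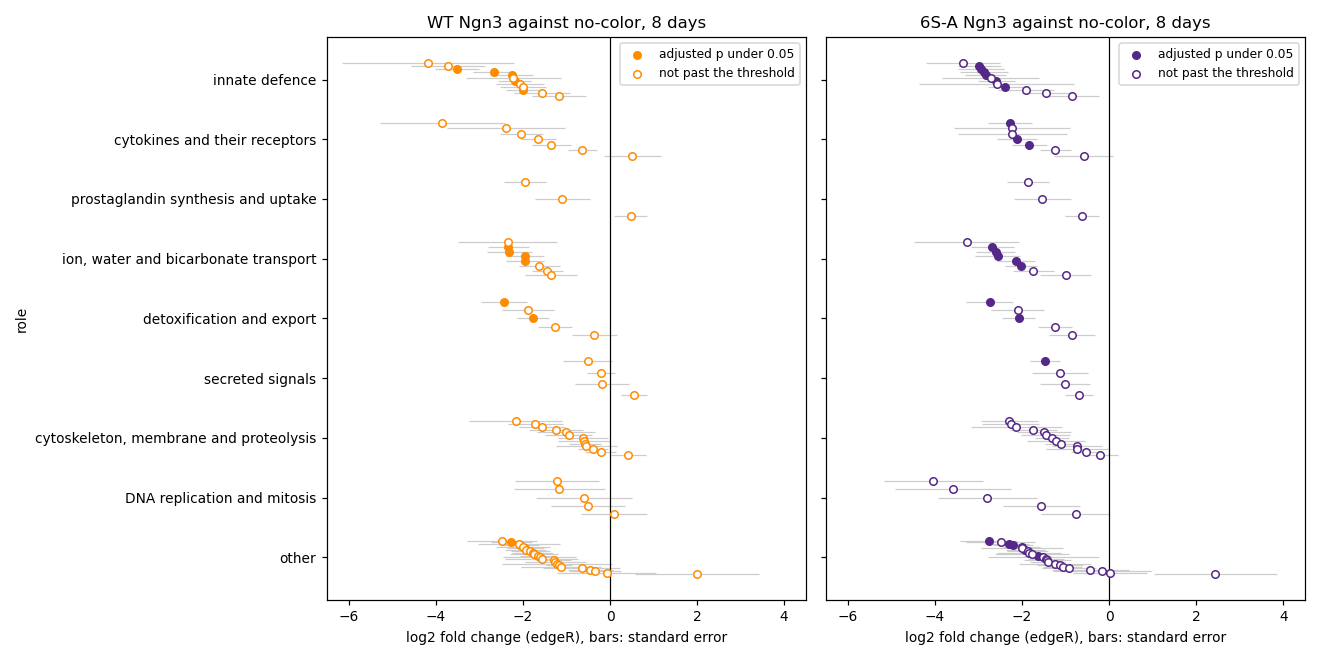
Log2 fold change of each member at 8 days against the mean of both no-color groups, WT Ngn3 on the left and 6S-A Ngn3 on the right, by role; points are edgeR estimates, bars are standard errors and filled points passed an adjusted p of 0.05. The filled points sit in defence, transport, detoxification, cytokine, secreted signal and ungrouped genes, those of cytokines and secreted signals on the right, and every filled point lies below 0.

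Among the 12 innate defence genes, 5 fell at 8 days in WT Ngn3 cells and 6 in 6S-A cells, and all 12 had a log2 fold change below 0 with both proteins, with medians of -2.21 and -2.66. Lcn2 encodes lipocalin 2, which withholds iron from bacteria by binding their siderophores, and it was the most abundant member, at 2597 CPM per kb of exon with GFP only. It read 6419, 8214 and 5804 CPM with GFP only, 942, 1881 and 1961 with WT Ngn3 and 677, 1795 and 1099 with 6S-A Ngn3 at 2 days. At 8 days it read 9544 to 24827 CPM (median 13645) in the 6 no-color replicates, 5271, 2991 and 6476 with WT Ngn3 and 2171, 4587 and 2681 with 6S-A Ngn3. Neither protein overlapped the no-color cells, and the log2 fold changes were -1.99 ± 0.40 (SE, edgeR adjusted p = 0.0269) and -2.59 ± 0.42 (adjusted p = 0.00328).

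Ltf encodes lactoferrin, which also binds iron. It read 176, 397 and 275 CPM with GFP only, 11.9, 72.7 and 37.0 with WT Ngn3 and 6.84, 29.1 and 12.3 with 6S-A Ngn3 at 2 days. In no-color cells at 8 days it ranged from 448 to 2723 CPM, above every WT (165, 74.1, 125) and every 6S-A value (226, 220.2, 20.1). Its log2 fold changes, -3.72 ± 0.86 and -3.36 ± 0.84, missed the threshold with adjusted p = 0.0746 and 0.0751. Chil1, a chitinase-like protein without enzyme activity, had the largest fall among the called members in both comparisons. It read 16.1, 38.5 and 16.9 CPM with GFP only, 1.18, 3.78 and 1.84 with WT Ngn3 and 0.542, 1.07 and 3.26 with 6S-A Ngn3 at 2 days, and 100.2 to 322 CPM in no-color cells, 30.7, 5.93 and 30.8 with WT Ngn3 and 43.1, 28.5 and 25.5 with 6S-A Ngn3 at 8 days. The groups were apart at both times, and the 8-day log2 fold changes were -3.51 ± 0.51 (adjusted p = 0.00218) and -2.98 ± 0.49 (adjusted p = 0.0039).

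The other called defence genes were Pglyrp1 (a peptidoglycan recognition protein, log2 fold change -2.66 with WT and -2.83 with 6S-A Ngn3), Sftpd (surfactant protein D, a collectin that binds microbial sugars, -2.26 and -2.94) and Cd14 (the co-receptor for lipopolysaccharide, -2.19 and -2.38). Against the no-color cells of the own cultures only, the 6S-A call of Pglyrp1 and the WT call of Sftpd were lost. Cd14 was very even with GFP only, at 532, 538 and 523 CPM, and read 129.8, 126 and 157 with WT and 74.0, 108 and 104 with 6S-A Ngn3 at 2 days. Tlr4, the signaling receptor that works with Cd14, was a member too, but at 8 days its values of 8.40, 7.91 and 16.9 CPM with WT and 19.0, 21.3 and 1.17 with 6S-A Ngn3 overlapped the no-color range of 13.5 to 32.2. Duoxa2, the maturation factor of the dual oxidase Duox2, whose exons overlap those of Duoxa1, passed with 6S-A Ngn3 (-2.88 ± 0.55, adjusted p = 0.0106) and not with WT Ngn3 (-2.0 ± 0.53, adjusted p = 0.0963). Duox2 itself, which makes hydrogen peroxide at mucosal surfaces, was at -1.57 and -1.90 and passed in neither. The 2 genes lie head to head on chromosome 2, 450 bp apart.

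Reg3b, an antimicrobial lectin, had the lowest ratios of all members at 2 days (0.0299 with WT and 0.0197 with 6S-A Ngn3) and was also the most uneven. It read 11.5, 15.5 and 69.4 CPM with GFP only, 0.169, 0.111 and 2.60 with WT Ngn3 and 0.0492, 1.80 and 0.0486 with 6S-A Ngn3. No-color cells at 8 days ranged from 10.01 to 638 CPM, WT Ngn3 from 0 to 34.0 and 6S-A Ngn3 from 3.52 to 93.5, so the groups overlapped and neither comparison passed (adjusted p = 0.514 and 0.653). In WT replicate 2, where it read 0, a count of 3 reads equals 0.989 CPM. Lrg1, a leucine-rich glycoprotein of the acute phase, was likewise low at 2 days, with a WT ratio of 0.295, and did not pass at 8 days.

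**Figure D3:**
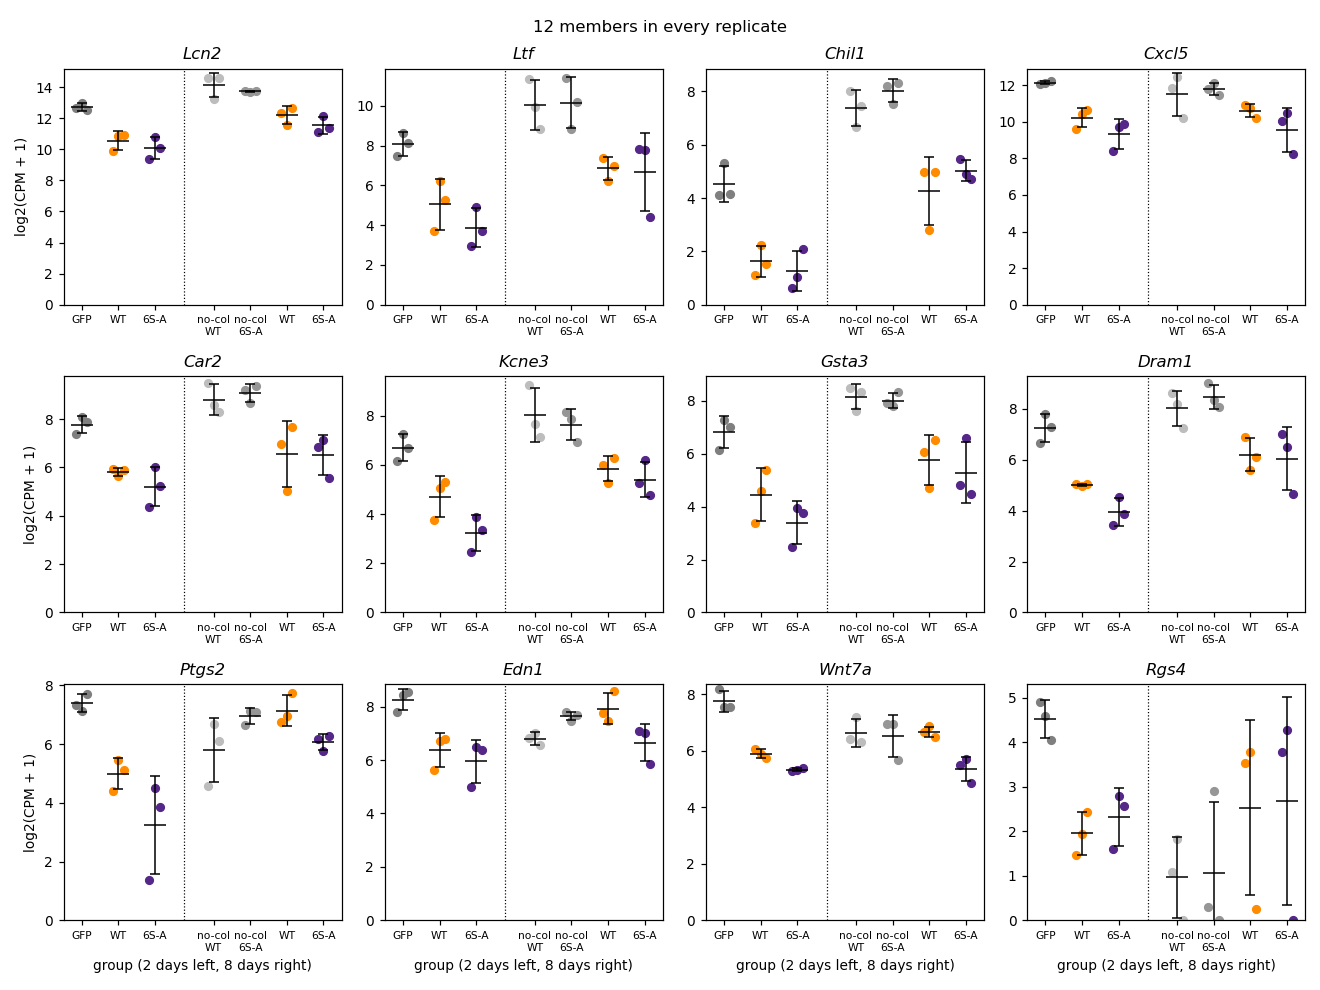
Levels of 12 members as log2(CPM + 1) in every replicate (points) of the 7 groups, with the mean and SD of these log values (bars); 2 days is left of the dotted line and 8 days right of it. Lcn2, Ltf, Chil1, Dram1, Gsta3 and Kcne3 lie below their controls at both times, whereas Ptgs2, Edn1 and Rgs4 with WT Ngn3 reach or pass the no-color level at 8 days.

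Of the 7 cytokines and receptors, none passed with WT Ngn3 and 3 fell with 6S-A Ngn3 at 8 days. With the replicate block these 3, Cxcl5, Csf3 and Il1r1, also passed with WT Ngn3 (edgeR adjusted p = 0.0319, 0.00325 and 0.0188). Cxcl5, a chemokine that attracts neutrophils, was the second most abundant member at 2431 CPM per kb with GFP only. It read 4261, 4492 and 4836 CPM with GFP only, 791, 1387 and 1579 with WT Ngn3 and 339, 836 and 956 with 6S-A Ngn3 at 2 days. At 8 days the no-color replicates ranged from 1169 to 5639 CPM (median 3639), and WT Ngn3 read 1912, 1698 and 1189 and 6S-A Ngn3 1035, 1439 and 296. Only the low no-color WT replicate 3 overlapped the 6S-A values, and the log2 fold changes were -1.35 ± 0.45 (adjusted p = 0.225) and -2.12 ± 0.47 (adjusted p = 0.025). Csf3, the granulocyte colony-stimulating factor, was at -2.04 ± 0.50 with WT Ngn3 (adjusted p = 0.0676) and -2.28 ± 0.50 with 6S-A Ngn3 (adjusted p = 0.025). Il1r1, the receptor of interleukin 1, was at -1.65 ± 0.40 (adjusted p = 0.0639) and -1.83 ± 0.40 (adjusted p = 0.0233). The Cxcl5 call was lost without 6S-A replicate 1 or 3 or no-color WT replicate 1 or 2, the Csf3 call without 6S-A replicate 2 or 3 or no-color WT replicate 1 or 2, and the Il1r1 call without 6S-A replicate 1 or 3. The direct comparison of 6S-A with WT Ngn3 called none of the 7 (edgeR adjusted p = 1 for each), so the proteins are not shown to differ in these genes.

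Il1rn, the secreted antagonist of interleukin 1, read 206, 251 and 247 CPM with GFP only and 41.8, 60.2 and 82.8 with WT Ngn3 at 2 days, but 301, 133 and 189 with WT Ngn3 at 8 days, inside the no-color range of 127 to 461. Csf2, the granulocyte-macrophage colony-stimulating factor, differed in sign between the proteins at 8 days: 111, 85.1 and 166 CPM with GFP only stood against 18.2, 45.2 and 43.1 with WT Ngn3 at 2 days, and at 8 days its log2 fold change with WT Ngn3 was 0.51 ± 0.66 (adjusted p = 0.849) and with 6S-A Ngn3 -0.59 ± 0.68 (adjusted p = 0.834), neither past the threshold. Il33, an alarmin held in the nucleus, and the chemokine Cxcl3 were below 50 CPM in every replicate and passed in neither comparison. Of the 23 tested genes of a list of cytokines, chemokines and acute phase genes that holds 5 of these members, 2 were lower and 1 higher with 6S-A Ngn3 and 0 lower and 1 higher with WT Ngn3. The higher gene, which is no member, was Csf1, at 2.09 with WT and 1.95 with 6S-A Ngn3. Ccl2, a monocyte chemokine in the same list, stood at 3.34 and 3.07 times its GFP-only level at 2 days, so the list did not move one way.

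The 3 prostaglandin genes were Ptgs1 and Ptgs2, the cyclooxygenases that make prostaglandin H2, and Slco2a1, the transporter that takes prostaglandins up. At 2 days Ptgs2 read 160.1, 138 and 209 CPM with GFP only, 20.2, 43.1 and 33.4 with WT Ngn3 and 1.58, 21.9 and 13.5 with 6S-A Ngn3. At 8 days the no-color replicates ranged from 23.0 to 139.6 CPM, WT Ngn3 read 106, 124 and 209.8 and 6S-A Ngn3 71.9, 53.5 and 75.6. Neither comparison passed, at 0.48 ± 0.38 (adjusted p = 0.719) and -0.63 ± 0.39 (adjusted p = 0.584). Ptgs1, the constitutive enzyme, was at -1.95 ± 0.49 and -1.86 ± 0.48, with adjusted p = 0.0769 and 0.0666. It passed in both comparisons with the replicate block (edgeR adjusted p = 0.0199 and 0.0254).

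Of the 8 transport genes, 4 fell at 8 days in WT Ngn3 cells and 5 in 6S-A cells, and all 8 were below 0 with both proteins (medians -1.96 and -2.35). Car2, the cytosolic carbonic anhydrase that supplies bicarbonate, read 164, 271 and 234 CPM with GFP only, 60.2, 48.9 and 58.7 with WT Ngn3 and 19.8, 63.4 and 36.5 with 6S-A Ngn3 at 2 days. At 8 days no-color cells ranged from 314 to 729 CPM, WT Ngn3 read 123, 32.0 and 204 and 6S-A Ngn3 113, 141 and 46.1, and it changed by -2.31 ± 0.52 (WT, adjusted p = 0.0453) and -2.56 ± 0.52 (6S-A, adjusted p = 0.0169) on the log2 scale. All Ngn3 replicates of both times lay below their controls. The Car2 call with WT Ngn3 was close to the threshold and was lost without any of 9 replicates in turn, and with 6S-A Ngn3 without 6S-A replicate 1 or 3.

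Kcne3, a subunit that keeps the KCNQ1 potassium channel open, read 69.9, 153 and 102 CPM with GFP only, 12.4, 32.1 and 38.8 with WT Ngn3 and 4.43, 13.7 and 9.09 with 6S-A Ngn3 at 2 days. At 8 days it fell with both (-2.33 ± 0.48, adjusted p = 0.0284, and -2.69 ± 0.49, adjusted p = 0.00731). Kcnn4, a calcium-activated potassium channel, was nearly level with GFP only (163, 150.2 and 152 CPM) and fell at 8 days by 1.96 with WT and by 2.61 with 6S-A Ngn3 on the log2 scale. Slc26a9, a chloride channel of the bicarbonate exchanger family, fell by 1.96 and 2.15. Gabrp, a subunit of a GABA-gated chloride channel found in epithelia, read 910.2, 980.5 and 824 CPM with GFP only and passed with 6S-A Ngn3 (-2.03 ± 0.37, adjusted p = 0.00731) but not with WT Ngn3 (-1.44 ± 0.36, adjusted p = 0.0736). Aqp5, a water channel, was at -2.35 and -3.27, Cldn8, a tight junction protein that shapes ion leak, at -1.63 and -1.75, and Car9, the carbonic anhydrase of the cell surface, at -1.36 and -1.0, all without passing.

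Of the 8 transport members, all but Gabrp and Cldn8 were in a list of 22 genes of duct fluid and bicarbonate transport. Of its 17 genes tested at 8 days, 4 were lower and none higher with each protein, and all 4 were members. The 14 list genes at 20 CPM or more with GFP only had median 2-day ratios of 0.52 (WT) and 0.446 (6S-A). Among the non-members, Kcnq1, the channel that Kcne3 joins, stood at 0.625 and 0.541 times GFP only, and the calcium-activated chloride channel Ano1 at 0.745 and 0.589. The keratin and surface marker list held 2 members, Lcn2 and Krt23, and 3 of its 21 genes were lower with WT and 6 with 6S-A Ngn3 at 8 days, with none higher.

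Of the 5 detoxification and export genes, Gsta3 and Gsta4 fell with both proteins. These encode alpha-class glutathione transferases, which join glutathione to reactive compounds. Gsta3 read 68.7, 154 and 128 CPM with GFP only, 9.50, 23.2 and 40.6 with WT Ngn3 and 4.53, 14.5 and 12.5 with 6S-A Ngn3 at 2 days. Its 8-day levels were 196 to 359 CPM in no-color cells, 65.5, 25.4 and 90.8 with WT Ngn3 and 26.9, 95.8 and 21.1 with 6S-A Ngn3 (-2.44 ± 0.53, adjusted p = 0.0423, and -2.74 ± 0.54, adjusted p = 0.0134). Gsta4 was at -1.77 ± 0.37 (adjusted p = 0.0302) and -2.08 ± 0.37 (adjusted p = 0.00683). The alpha-class genes are alike in sequence, so reads may have been split or lost between them. Gstt1, a theta-class transferase, was at -1.27 and -1.25, the export pump Abcc3 at -1.88 and -2.10, and Slc7a11, which imports cystine for glutathione synthesis, at -0.36 and -0.85, none of which passed. In the list of 26 glutathione and detoxification genes, of which 25 were tested, Gsta3 and Gsta4 were the only genes called lower and none was higher, and Gpx2, a glutathione peroxidase that is no member, stood at 2.56 and 2.82 times GFP only at 2 days.

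The 4 secreted signals and the 13 genes of the cytoskeleton, membrane and proteolysis had median log2 fold changes of -0.20 and -0.62 at 8 days with WT Ngn3, where no member of either passed, and of -1.07 and -1.31 with 6S-A Ngn3, where 1 passed and all 4 and all 13 were below 0. That gene was Wnt7a, a Wnt ligand. It read 289.9, 185 and 185 CPM with GFP only, 66.0, 58.6 and 52.0 with WT Ngn3 and 37.6, 39.2 and 40.7 with 6S-A Ngn3 at 2 days. At 8 days WT Ngn3 was at 99.2, 115 and 89.4 CPM, within the no-color range of 49.4 to 145, and 6S-A Ngn3 at 43.7, 51.2 and 27.98 (-0.20 ± 0.32, adjusted p = 0.886, and -1.48 ± 0.34, adjusted p = 0.0334). The call was lost without any of 6S-A replicates 1, 2 and 3, WT replicate 2, no-color 6S-A replicates 1 and 2 or no-color WT replicate 2.

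Edn1, which encodes the peptide endothelin 1, read 224, 349 and 368 CPM with GFP only, 49.0, 104 and 109.8 with WT Ngn3 and 31.2, 87.7 and 81.2 with 6S-A Ngn3 at 2 days. At 8 days it was at 214, 174 and 380.0 CPM with WT Ngn3 and 136, 128 and 57.3 with 6S-A Ngn3, around a no-color median of 153. Fst, follistatin, which binds activin, and Ereg, the EGF receptor ligand epiregulin, were at -0.19 and -0.52 with WT Ngn3 and -1.12 and -1.01 with 6S-A Ngn3, without passing. Among the genes of the membrane and cytoskeleton, Ahnak, a giant scaffold protein beneath the plasma membrane, read 278, 274 and 428 CPM with GFP only and 85.8, 75.8 and 143 with WT Ngn3 at 2 days, and 247, 187 and 288 at 8 days within a no-color range of 163 to 314. S100a10, the partner of annexin A2, read 471, 595 and 539 CPM with GFP only and was at -1.56 and -1.74 at 8 days without passing. Emp1, an epithelial membrane protein, was at 0.42 and -0.20, Ctse, the aspartic protease cathepsin E, at -1.25 and -2.29, and Krt23, a type I keratin, at -1.72 and -2.26.

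The 5 members of DNA replication and mitosis stood near the limit of the rule, at 0.318 to 0.325 times GFP only with WT Ngn3. Rrm2, the small subunit of ribonucleotide reductase, read 37.6, 63.0 and 46.1 CPM with GFP only, 23.7, 11.4 and 12.4 with WT Ngn3 and 9.40, 13.3 and 8.17 with 6S-A Ngn3 at 2 days. At 8 days it ranged from 2.50 to 54.1 CPM in no-color cells and read 9.01, 27.7 and 2.42 with WT Ngn3 and 0.594, 4.60 and 0.146 with 6S-A Ngn3, at -1.23 ± 0.96 (adjusted p = 0.721) and -4.04 ± 1.14 (adjusted p = 0.115). Uhrf1 (which maintains DNA methylation), Pole (the catalytic subunit of DNA polymerase epsilon), Ckap2l and Bub1b (proteins of the mitotic spindle and its checkpoint) also passed in neither. In the fixed lists, 24 replication genes reached 20 CPM with GFP only and had median ratios of 0.552 and 0.495 at 2 days, and 35 mitosis genes had 0.431 and 0.363. At 8 days the 32 replication genes tested had median log2 fold changes of -0.76 (WT, 31 below 0) and -1.18 (6S-A, 32 below 0), and the 52 mitosis genes of -1.07 (49 below 0) and -1.77 (52 below 0). Of these genes 1 passed, the non-member Rpa2, a subunit of the single-strand DNA binding protein RPA, which was lower with 6S-A Ngn3 (-2.0 ± 0.49, edgeR adjusted p = 0.0461).

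Of the 23 ungrouped members, 3 fell with WT and 6 with 6S-A Ngn3. Dram1, a lysosomal membrane protein tied to autophagy, read 100.2, 221 and 152 CPM with GFP only, 31.5, 30.2 and 31.6 with WT Ngn3 and 9.90, 22.2 and 13.5 with 6S-A Ngn3 at 2 days. It fell with both at 8 days (-2.26 ± 0.46, adjusted p = 0.0273, and -2.20 ± 0.46, adjusted p = 0.0178). Aspa, the enzyme that splits N-acetylaspartate, fell by 2.06 and 2.30 and Tinagl1, a secreted matrix protein, by 1.95 and 2.01 on the log2 scale. With 6S-A Ngn3, Lgals3 (galectin 3, a sugar-binding protein), Plet1 (a surface protein of epithelial progenitors) and Tstd1 fell too, at -1.64, -1.92 and -2.76. Tstd1 shares exon sequence with Usf1 on the same strand, one no-color WT replicate read 294 CPM against 25.3 to 70.4 in the others, and the call was lost without any of 8 of the 12 replicates. Foxj1, the master factor of motile cilia, and Aldh1a2, which makes retinoic acid, were at -0.34 and -0.07 with WT Ngn3.

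Rgs4, a regulator of G protein signaling, was the member with the highest log2 fold change at 8 days in both comparisons. It read 29.2, 23.2 and 15.7 CPM with GFP only and 1.77 to 5.97 CPM with either protein at 2 days. At 8 days it was at 0 to 6.46 CPM in no-color cells, 10.7, 12.9 and 0.201 with WT Ngn3 and 12.9, 18.4 and 0 with 6S-A Ngn3. Replicates 1 and 2 of both proteins lay above all no-color replicates and replicate 3 did not, and the fold changes of 2.00 ± 1.42 and 2.44 ± 1.41 did not pass (adjusted p = 0.679 and 0.542). The next highest with 6S-A Ngn3 was Gm42793, at 0.01, and Aldh1a2, Emp1 and Pitpnm3 followed at -0.16, -0.20 and -0.43. Gm42793 shares exon sequence with Spp1 on the same strand. Reads in the shared sequence cannot be told apart and may have been left out as ambiguous, so the level of Gm42793 is uncertain.

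The controls themselves differed between the time points. The no-color mean at 8 days was at least 2 times the GFP-only mean at 2 days for 17 members and at most 0.5 times for 11, with a median of 1.15. Of the 12 innate defence genes, 8 were among those 17, but the ratios ran from 0.847 in Tlr4 to 9.35 in Chil1. Among the highest ratios in this role, Reg3b stood at 6.27, Lrg1 at 5.03, Ltf at 4.92 and Sftpd at 4.49 times the GFP-only mean. Rgs4 was at 0.0758 times, Fst at 0.136, Foxj1 at 0.22 and Csf2 at 0.268. Across the 80 members, the log2 of this ratio and the 8-day log2 fold change with WT Ngn3 had a Pearson correlation of -0.763, given as a description without a p, since both use the same no-color libraries and genes are not independent replicates. The log2 ratio to GFP only at 2 days and the 8-day log2 fold change, which share no library, had r = 0.393 with WT and r = 0.291 with 6S-A Ngn3 across the 80 genes, which share their sources and were chosen for low ratios. A deeper ratio at 2 days did not always go with a lower 8-day level: Ptgs2 and Rgs4 were among the 16 lowest ratios and were not lower at 8 days with WT Ngn3.

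**Figure D4:**
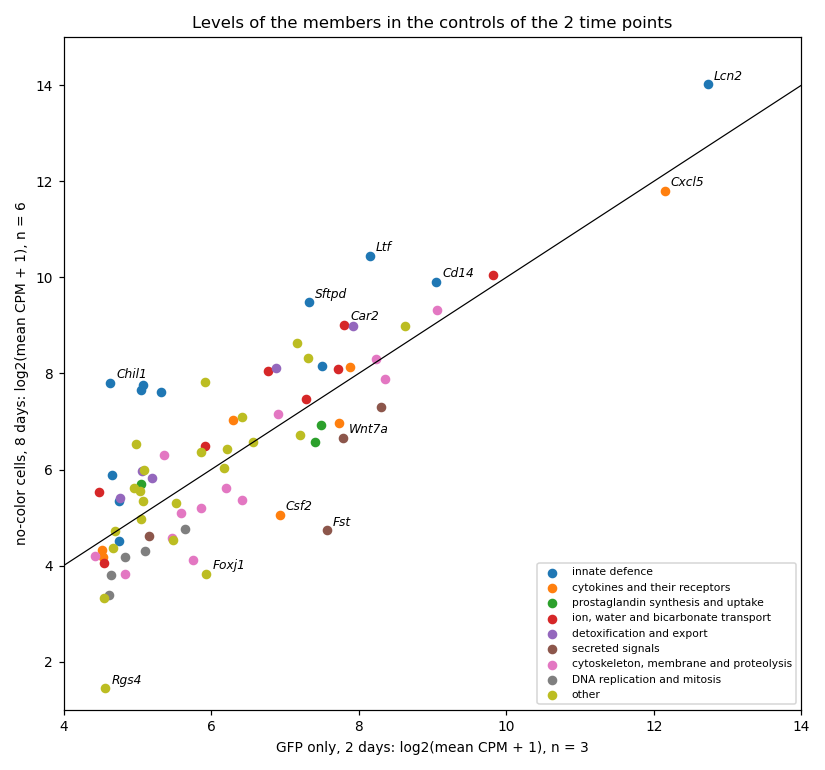
Mean level of each member in no-color cells at 8 days (vertical, n = 6) against GFP-only cells at 2 days (horizontal, n = 3), both as log2(mean CPM + 1), colored by role, with the line of equal levels. Ltf, Sftpd and Chil1 lie far above the line, at 4.92, 4.49 and 9.35 times the GFP-only mean, and Rgs4, Fst and Foxj1 far below it.

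The direct comparison of 6S-A with WT Ngn3 at 8 days called no member in edgeR (0% of 19696 genes were called), and DESeq2 called none. At an unadjusted p under 0.05, 5 members were lower with 6S-A Ngn3 and none was higher, where 1.1% of all genes tested were lower at that p and 2.11% differed either way. They were Wnt7a (-1.28 ± 0.37, p = 0.00332 from edgeR), Edn1 (-1.25 ± 0.37, p = 0.00345), Ptgs2 (-1.11 ± 0.45, p = 0.0246), Rrm2 (-2.81 ± 1.16, p = 0.0294) and Ckap2l (-2.98 ± 1.37, p = 0.0478), each with an adjusted p of 1. The median over the members was -0.27, with 59 of 80 below 0, where 48.2% of all genes tested were below 0, with a median of 0.02. The no-color cells of the 6S-A and the WT cultures had no member called between them in edgeR (0% of all genes were called, with 9 members and 8.37% of all genes at an unadjusted p under 0.05), with a median of 0.12. DESeq2 called 38 genes there (0.193%), among them the member Pglyrp1, lower in the 6S-A cultures by 1.97 on the log2 scale, whose no-color replicates read 121 to 152 CPM in the 6S-A and 233 to 559.6 CPM in the WT cultures.

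The 80 members lie on 19 chromosomes, and all but 1 are protein-coding in GENCODE M21 (GRCm38). Several are close neighbours. Cxcl5 (chromosome 5, 90759360 to 90761624) and Cxcl3 (90786103 to 90789600) are 24478 bp apart in the chemokine cluster, and Ereg starts 285021 bp beyond Cxcl3. Kcnn4 (chromosome 7, 24370263 to 24386690) and Plaur, the urokinase receptor (24462484 to 24475968), are 75793 bp apart. Car9 and Tpm2, a tropomyosin, are 981 bp apart tail to tail on chromosome 4, and Ctse and Slc26a9 lie 68516 bp apart on chromosome 1. For 21 members the annotation has an exon of another gene over one of their exons, on the opposite strand for 19 and on the same strand for 2. Strand-specific counting was not stated. Reads in the shared sequence of a pair cannot be told apart and may have been left out as ambiguous.

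The promoters were searched for short motifs, because genes that move together may carry common letters at their starts. RefSeq promoters (GRCm38.p6, 250 bases before to 50 after the start) matched 60 of the 80 members. The AP-1 letters TGANTCA, searched on both strands, were in 10 of the 60 (16.7%) and in 8.97% of the 27025 genes of the table. The E boxes CAGATG and CAGCTG, of the kind that helix-loop-helix factors bind, were each in 15% of the members and in 19.2% and 18.3% of all genes. CCAAT was in 50% and 41.1%, TTTGAA in 11.7% and 20.2%, ACATTCC in 5% and 4.47%, and the E2F letters TTTCCCGC or TTTGGCGC in 0 of 60 and 1.8%. The C/EBP-type letters TTGCNNAA, chosen after the members were known, were in 17 of 60 (28.3%) and in 12.2% of all genes, and the kappa-B motif, also chosen afterwards, in 10% and 5.14%. A match is a description of the letters, not of a bound site.

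A few promoters are shown, 5′ to 3′ from 250 bases before the start to the base before it, as pairs of a member that was low at 8 days and one that was not: Lcn2 and Ltf against Ptgs2 and Csf2 for the C/EBP-type letters, and Tinagl1 against Emp1 for AP-1. Capitals mark the match. The match starts 216 bases before the start in Lcn2 (chr2:32387740-32387989, minus strand), 75 in Ltf (chr9:111019042-111019291, plus strand), 69 in Ptgs2 (chr1:150099781-150100030, plus strand), 145 in Csf2 (chr11:54249900-54250149, minus strand), 174 in Tinagl1 (chr4:130175123-130175372, minus strand, the upstream of 2 promoters) and 145 and 25 in Emp1 (chr6:135362681-135362930, plus strand, the upstream of 2).
Lcn2: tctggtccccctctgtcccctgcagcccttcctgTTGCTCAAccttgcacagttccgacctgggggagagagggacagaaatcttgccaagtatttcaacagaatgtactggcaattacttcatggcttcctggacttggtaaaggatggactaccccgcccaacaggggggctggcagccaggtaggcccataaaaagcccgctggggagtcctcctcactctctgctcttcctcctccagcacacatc
Ltf: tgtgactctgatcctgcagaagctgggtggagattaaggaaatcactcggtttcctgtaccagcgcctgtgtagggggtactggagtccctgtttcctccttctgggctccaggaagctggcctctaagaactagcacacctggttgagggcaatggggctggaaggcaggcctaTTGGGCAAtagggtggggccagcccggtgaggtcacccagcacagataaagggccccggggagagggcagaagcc
Ptgs2: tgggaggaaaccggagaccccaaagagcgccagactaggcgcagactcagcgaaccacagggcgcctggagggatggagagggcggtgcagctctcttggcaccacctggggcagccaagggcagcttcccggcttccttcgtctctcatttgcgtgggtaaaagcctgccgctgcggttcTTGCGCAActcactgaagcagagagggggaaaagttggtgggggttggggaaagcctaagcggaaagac
Csf2: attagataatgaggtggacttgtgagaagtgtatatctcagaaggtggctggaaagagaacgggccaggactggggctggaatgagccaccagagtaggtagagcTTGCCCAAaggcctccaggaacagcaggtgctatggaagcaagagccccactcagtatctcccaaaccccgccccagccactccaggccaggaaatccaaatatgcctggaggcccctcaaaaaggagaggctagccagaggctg
Tinagl1: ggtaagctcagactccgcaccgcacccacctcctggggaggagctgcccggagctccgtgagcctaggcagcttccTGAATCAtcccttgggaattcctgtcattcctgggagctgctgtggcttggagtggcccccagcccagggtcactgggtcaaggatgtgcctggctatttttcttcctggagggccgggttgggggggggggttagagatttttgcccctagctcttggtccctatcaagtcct
Emp1: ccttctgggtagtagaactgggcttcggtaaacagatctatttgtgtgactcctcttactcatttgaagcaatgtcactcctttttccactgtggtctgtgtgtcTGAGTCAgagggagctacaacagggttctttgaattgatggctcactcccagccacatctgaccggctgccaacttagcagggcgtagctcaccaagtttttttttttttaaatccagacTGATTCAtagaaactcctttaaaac
The same letters therefore stand before genes whose 8-day levels differed: with WT Ngn3, Lcn2 and Tinagl1 fell, Ltf was at -3.72 with no overlap, and Ptgs2, Csf2 and Emp1 were at 0.48, 0.51 and 0.42. With 6S-A Ngn3 these 3 were at -0.63, -0.59 and -0.20 and did not pass, while Lcn2 and Tinagl1 fell.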

How the data were processed

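Libraries were Smart-seq2 preparations of pools of 50 sorted cells. The authors aligned reads to mm10 with GSNAP and deposited whole-number counts per gene made with HTSeq 0.5.3p3, as given in the submitters' processing notes. Reads without a feature (14.4% of all), ambiguous (8.06%) and not aligned (22.5%) were left out of library totals. Of 77 libraries, 76 passed limits on spike-in share, reads and detected genes (30%, 1000000 and 10000). Technical repeats were summed per replicate and CPM was taken over genes. Comparisons were fitted with edgeR 4.0.16 (R 4.3.3, quasi-likelihood, TMM, all 8-day samples in 1 fit, Benjamini-Hochberg over 19696 genes), with DESeq2 1.42.0 as an alternative. On simulated counts (19693 genes, 200 changed 4-fold), the fit recovered 31% of changes in the WT and 27.5% in the 6S-A comparison, and 11.4% and 8.33% of its calls were false. The members, roles and gene lists were chosen with earlier results of these data known. Named members were, by rule, the 12 with the lowest 2-day ratios, the 8 of highest GFP-only level, the 4 nearest the limit, in each 8-day comparison with no-color cells the 8 lowest called and the 5 highest, and up to 4 in each list with 2 or more members. The other members named (Abcc3, Aspa, Cxcl3, Duox2, Ereg, Foxj1, Fst, Il1r1, Lgals3, Lrg1, Plaur, Plet1, Slc26a9, Slc7a11, Slco2a1, Tlr4, Tpm2, Wnt7a) were chosen after their values were seen, as were the non-members Kcnq1, Ano1, Gpx2, Rpa2, Csf1 and Ccl2. The values of 1 member are not reported here. Likewise the roles and the C/EBP-type and kappa-B motifs were set after values were seen. The precision rests on 3 replicates a group and 2397470 reads or more each.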

Additional observations from a re-analysis of the deposited data

Results flagged for a closer look

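Ptgs2 and Edn1 were the members in which all 3 WT Ngn3 replicates at 8 days were above the mean of the 6 no-color replicates and all 3 6S-A Ngn3 replicates below it. The log2 difference of 6S-A against WT Ngn3 was -1.11 for Ptgs2 (edgeR p = 0.0246, adjusted p = 1) and -1.25 for Edn1 (edgeR p = 0.00345, adjusted p = 1), so neither difference passed the correction.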

How the results depend on the processing

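No alternative called a member higher at 8 days. The 14 members lower with WT Ngn3 and the 23 lower with 6S-A became 33 and 43 with DESeq2 (which called 1.03% and 1.79% of all genes lower, against 0.173% and 0.34%), 6 and 12 against the no-color cells of the own cultures, 6 and 8 with the ratio limit at 0.25 and 22 and 41 with it at 0.5. The count was 9 with WT Ngn3 on the first technical repeat only (0.0914% of all genes) and 10 with 6S-A Ngn3 on passage 2 only (0.132%), an alternative chosen after the data were seen. Leaving out 1 replicate gave 1 to 23 with WT and 13 to 25 with 6S-A Ngn3. The WT median log2 fold change was -1.95 at a limit of 0.25 and -1.01 at 0.5. The rule itself gave 28 members at 0.25, 312 at 0.5, 42 with at least 50 CPM and 32 when every Ngn3 replicate had to meet it against the GFP-only replicate of the same number, which pairs by number. DESeq2 called 1 member between the no-color groups. The cause of these shifts was not tested.

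With a replicate block the counts were 26 and 38, where 0.619% and 1.18% of all genes were called lower. With WT Ngn3 the block gained 13 calls and lost that of Gsta3. Among those gained were Cxcl5, Csf3, Il1r1, Gabrp, Duoxa2, Ptgs1, Lgals3, Plet1, S100a10 and Abcc3. With 6S-A Ngn3 it gained 15 and lost 0. Among these were Ptgs1, Slco2a1, Cldn8, Krt23, Il1rn, Duox2, S100a10, Abcc3, Uhrf1, Rrm2 and Eva1c. In the main results the replicate numbers were not taken as pairs. The lowest same-number correlation of deviations at 8 days was 0.069, and 15 of 18 pairs exceeded 0.1. The median was 0.212 for same-number pairs and -0.117 for the others. All 12 samples correlated best with their own number at 8 days, as did all 9 at 2 days. The labels tie the number to passage in part. At 8 days replicate 3 of every group was of passage 5, and replicates 1 and 2, of passage 2, are not told apart. A member that passed only with the block is therefore not shown to be unchanged.

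Directions turned for weak members, none of them called. With WT Ngn3, Aldh1a2 went to 0.97 under the replicate block and 0.23 on the first repeat (-0.92 to 1.70 without 1 replicate), Ckap2l to 0.65 under the block, Gm42793 to 0.13 against its own no-color cells, and Pole to -0.058 without library limits and -0.12 against its own no-color cells (-0.37 to 0.61). With 6S-A Ngn3, Pitpnm3 went to 0.056 on the first repeat and 0.055 on passage 2 (-1.31 to 0.10), Emp1 to 0.084 against its own no-color cells (-0.43 to 0.30), and Aldh1a2 to 0.96 under the block (-0.52 to 1.60). Gm42793 went to -0.024 with DESeq2, -0.045 with the filterByExpr filter, -0.31 under the block, -0.24 on the first repeat and -0.77 against its own no-color cells (-0.67 to 0.54).

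Over single members and settings, 1534 results kept direction and side of the threshold, 54 gained a call, 123 lost one and 37 changed sign. Depth limited members of low level: 3 reads equal 0.989 CPM in WT replicate 2.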
